A study of Mus musculus with 16 samples.

Results

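Cytochrome P450 enzymes (Cyp genes), UDP-glucuronosyltransferases (Ugt genes), and glutathione S-transferases (Gst genes) were followed in the kidneys of 16 mice of 4 genotypes. A gene was taken when its symbol placed it in a numbered Cyp family, in Ugt, or in an alpha, kappa, mu, omega, pi, sigma, theta, or zeta Gst class, and when a probe for it stood well above background on 4 arrays or more. Of 179 such genes in the name table, 136 had a named probe and 101 passed the background rule, out of 16400 named genes tested. They comprised 68 Cyp genes, 14 Ugt genes, and 19 Gst genes. Of the 101 members, 83 were above background on all 16 arrays. Cyp26a1 passed on 4 arrays, the fewest allowed, and Cyp2d37-ps and Gstp3 missed the rule with 3. The adrenal steroid enzymes Cyp11a1 and Cyp11b1 were below the rule as well.

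These enzymes work in sequence on drugs, steroids, fatty acids, and vitamin D. A Cyp enzyme adds oxygen to its substrate with electrons passed on by the reductase Por. Ugt enzymes then attach glucuronic acid and Gst enzymes attach glutathione, which makes the product easier to excrete. In the kidney most of them are found in the proximal tubule, which also hydroxylates vitamin D and turns arachidonic acid into compounds that act on blood vessels and salt transport. Several Cyp genes of the mouse kidney are known to depend on androgen.

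Each genotype had 4 mice, 1 array per mouse, with 100 ng of whole-kidney RNA per array and a labelled age of 6 months. C57BL/6 was the labelled strain of wild-type and of Sting gt/gt mice. The Fcgr2b-/- mice, which lack the inhibitory Fc gamma receptor IIb in every cell and serve as the lupus model, and the double-deficient mice, Fcgr2b-/- and Sting gt/gt together, were labelled a mix of 129 and C57BL/6, so loss of Fcgr2b and the mixed background cannot be told apart. Sting gt/gt is the Goldenticket allele, which acts as a functional knockout of STING. The wild-type mice were purchased, whereas the double-deficient mice and their littermates came from crosses of the 2 mutant lines, and the study's own headings call the lupus group Fcgr2b-/-.Sting wt/gt. A level is given throughout as log2 of the processed signal over the array's 75th percentile, so a difference of 1 is 2-fold, and 0 is the 75th percentile of that array, not absence. In whole-kidney RNA, fewer cells of a type and less RNA per cell cannot be told apart.

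The arrays fell into sets that the genotype labels do not name. Between 28441 and 35564 probes were above background on an array. The Y-linked genes Ddx3y, Eif2s3y, Kdm5d, and Uty were all above background on 6 arrays, wild-type 1 and 2, Fcgr2b-/- 3, double-deficient 2 and 4, and Sting gt/gt 3, and none was on the other 10. The X-inactivation transcript Xist was -7.85 to -7.06 on those 6 arrays and -3.68 to -1.29 on the 10. The labels do not give the sex of the mice. They do number the animals, and the first number is shared by wild-type 3 and 4, by Fcgr2b-/- 3 and double-deficient 4, and by Fcgr2b-/- 4 and double-deficient 3. What that number stands for is not stated. The arrays lay on 2 slides. On slide 1 both wild-type arrays had Y-linked signal and the 6 arrays of the other genotypes had none, so on that slide the signal and wild-type cannot be told apart. Of the 10 proximal tubule markers all were measured, with a mean of 4.51 on Fcgr2b-/- 1, 5.43 on Sting gt/gt 1, and 5.64 to 6.53 on the other 14 arrays. Proximal tubule genes were thus carried on every array. The mean of the thick limb, distal, and collecting duct markers was 2.63 on wild-type 1, 2.59 on Fcgr2b-/- 1, and 2.60 on double-deficient 2. It was 3.29 to 4.33 on the remaining arrays. The injury markers Havcr1, Lcn2, Krt20, and Vcam1 averaged 1.85 on Fcgr2b-/- 1 and 1.28 on Fcgr2b-/- 4 and -2.89 to -1.75 elsewhere. Fat markers stood highest on wild-type 1 and Fcgr2b-/- 1 with means of 1.15 and 1.36.

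Neighboring genes of the Ugt2b cluster and the Cyp2b pair moved together between the arrays with and without Y-linked signal, so the 250 bases before their annotated start sites are shown, from RefSeq on GRCm38.p6, read 5′ to 3′ on the strand of the gene. The table had a promoter for 78 of the 101 members. In the first set, capitals mark GTTATANTTTAAC, the longest run with at most 1 variable base that Ugt2b5, Ugt2b35, Ugt2b36, Ugt2b37, and Ugt2b38 share.
Ugt2b5 (chr5:87140341-87140590, minus strand): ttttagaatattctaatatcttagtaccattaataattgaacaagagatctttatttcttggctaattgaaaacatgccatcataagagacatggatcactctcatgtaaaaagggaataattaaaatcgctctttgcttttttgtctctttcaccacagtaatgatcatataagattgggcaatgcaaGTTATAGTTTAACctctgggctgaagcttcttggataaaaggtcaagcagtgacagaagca
Ugt2b36 (chr5:87092556-87092805, minus strand): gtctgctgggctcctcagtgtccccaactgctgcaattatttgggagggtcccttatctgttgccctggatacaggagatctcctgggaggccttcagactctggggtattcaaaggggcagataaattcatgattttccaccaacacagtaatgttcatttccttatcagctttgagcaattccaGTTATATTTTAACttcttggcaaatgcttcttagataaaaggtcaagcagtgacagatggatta
Ugt2b37 (chr5:87254789-87255038, minus strand): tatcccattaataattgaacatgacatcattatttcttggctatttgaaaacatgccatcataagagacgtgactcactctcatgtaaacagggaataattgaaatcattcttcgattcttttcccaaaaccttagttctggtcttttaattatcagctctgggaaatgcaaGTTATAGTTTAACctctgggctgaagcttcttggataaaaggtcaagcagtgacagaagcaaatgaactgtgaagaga
Ugt2b38 (chr5:87424204-87424453, minus strand): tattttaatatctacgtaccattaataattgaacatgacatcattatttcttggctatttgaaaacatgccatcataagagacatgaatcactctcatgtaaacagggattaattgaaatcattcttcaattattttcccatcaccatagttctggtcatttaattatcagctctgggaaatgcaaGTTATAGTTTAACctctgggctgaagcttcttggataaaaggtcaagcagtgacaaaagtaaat
Ugt2b35 (chr5:87000610-87000859, plus strand): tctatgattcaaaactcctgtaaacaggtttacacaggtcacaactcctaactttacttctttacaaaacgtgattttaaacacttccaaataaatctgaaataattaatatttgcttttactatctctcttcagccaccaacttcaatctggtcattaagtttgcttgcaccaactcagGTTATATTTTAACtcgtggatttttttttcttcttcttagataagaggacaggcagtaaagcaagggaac
Ugt2b34 (chr5:86906938-86907187, minus strand): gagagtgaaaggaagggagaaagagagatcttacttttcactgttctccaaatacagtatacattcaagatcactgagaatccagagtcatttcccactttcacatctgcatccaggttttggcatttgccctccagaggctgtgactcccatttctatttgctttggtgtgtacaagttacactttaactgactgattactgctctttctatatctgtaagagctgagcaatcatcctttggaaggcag

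The run began between 61 and 78 bases before the start in the 5 promoters. Searched on both strands, it was in 6 of all 32851 promoters of this length (0.0183%), and the sixth lies before Pklr. It was looked for after these sequences were seen. Ugt2b34, which lies in the same cluster on chromosome 5 and is shown for contrast, does not hold these letters. The upstream bases of Ugt2b37 and Ugt2b38 were 85.6% identical after global alignment, those of Ugt2b5 and Ugt2b38 82.4%, and those of Ugt2b35 and Ugt2b36 56.7%. The STAT5 motif TTCNNNGAA was in 0 of the 8 Ugt2 promoters and in 7.02% of all promoters. In the second set, capitals mark the longest identical run of 12 bases that Cyp2b9 and Cyp2b10 share. Their upstream bases were 72.0% identical.
Cyp2b9 (chr7:26173159-26173408, plus strand): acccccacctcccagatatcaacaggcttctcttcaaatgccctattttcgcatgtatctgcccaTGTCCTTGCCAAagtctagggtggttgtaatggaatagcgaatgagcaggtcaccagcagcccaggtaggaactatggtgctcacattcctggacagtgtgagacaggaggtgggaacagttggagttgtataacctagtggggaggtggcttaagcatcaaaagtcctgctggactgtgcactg
Cyp2b10 (chr7:25897408-25897657, plus strand): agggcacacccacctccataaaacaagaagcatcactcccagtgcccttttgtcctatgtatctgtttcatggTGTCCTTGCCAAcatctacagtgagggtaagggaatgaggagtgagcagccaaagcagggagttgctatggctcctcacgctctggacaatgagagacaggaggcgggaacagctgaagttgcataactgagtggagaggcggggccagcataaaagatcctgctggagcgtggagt

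Across genotypes, no member passed the test. With limma over all 16 arrays, 0 of 101 members were called in Fcgr2b-/- against wild-type, a call being a change of 2-fold or more with an adjusted p (Benjamini-Hochberg) under 0.05, and 0.0449% of the 35628 probes tested were called there. The count was 0 as well when double-deficient mice were set against each of the other groups and when Sting gt/gt mice were set against the wild-type group, each against 0% of all probes. It was 0 for both Fcgr2b-deficient groups against the other groups (0.0674% of all probes), for the interaction (0%), and for any difference among the 4 genotypes (0.014%). With 4 mice a group the precision was low. On simulated data for Fcgr2b-/- against wild-type, the fit recovered 54% of probes changed by 2 on the log2 scale and 0% of those changed by 1.

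At an unadjusted p under 0.05 the counts were 3 members in Fcgr2b-/- against wild-type (3.3% of all probes passed that level), 1 in double-deficient against Fcgr2b-/- (1.77%), 1 in double-deficient against wild-type (0.418%), 6 in Sting gt/gt against wild-type (3.71%), and 4 in double-deficient against Sting gt/gt (3.05%). For both Fcgr2b-deficient groups against the rest the count was 2 (1.63%), and for any difference among the 4 genotypes it was 2 (1.72%). For the interaction, the change with loss of STING in Fcgr2b-/- mice minus that in mice with Fcgr2b, it was 12 of 101 members, or 11.9%, against 6.2% of all probes. That count moved when single arrays were left out, and the count over all probes moved as well. It was 3 without wild-type 2 (1045 of all 35628 probes) and 3 without Sting gt/gt 4 (1137 probes). It was 5 without double-deficient 2 (1683), 6 without Fcgr2b-/- 1 (893), and 8 without Fcgr2b-/- 4 (1154) or double-deficient 1 (1542). It reached 19 without Fcgr2b-/- 2 (4746) and 18 without Fcgr2b-/- 3 (3634). With Y-linked signal as a covariate it was 7 (1278 of all probes). The other counts moved too with 1 array left out. In Fcgr2b-/- against wild-type the count lay between 1, as without Fcgr2b-/- 1 (539 of all probes), and 10, without Fcgr2b-/- 2 (2779). In Sting gt/gt against wild-type it was, among others, 2 without wild-type 2 (374 of all probes) and 8 without wild-type 4 (1326). With the shared animal number as a random block, 7 members passed in double-deficient against Fcgr2b-/- (3464 of all probes).

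The families leaned the same way in both single-deficient groups. In Fcgr2b-/- against wild-type, 81 of 101 members had a lower mean, with a median change of -0.34, whereas the median of all probes was -0.04. All 14 Ugt members were lower (median -0.88), as were 49 of 68 Cyp members (median -0.34) and 18 of 19 Gst members (median -0.14). In Sting gt/gt against wild-type 79 members were lower (median -0.44, all probes 0.02), among them 12 of 14 Ugt members (median -1.20), 52 Cyp members (median -0.38), and 15 Gst members (median -0.44). In double-deficient against wild-type the split was 44 higher and 57 lower with a median of -0.05, and the Ugt median was -0.05. These comparisons share the wild-type arrays. None of the single members behind these counts passed the test, and the shares of arrays with Y-linked signal differed alongside, at 2 of 4 in the wild-type and double-deficient groups and 1 of 4 in the Fcgr2b-/- and Sting gt/gt groups.

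**Figure D1:**
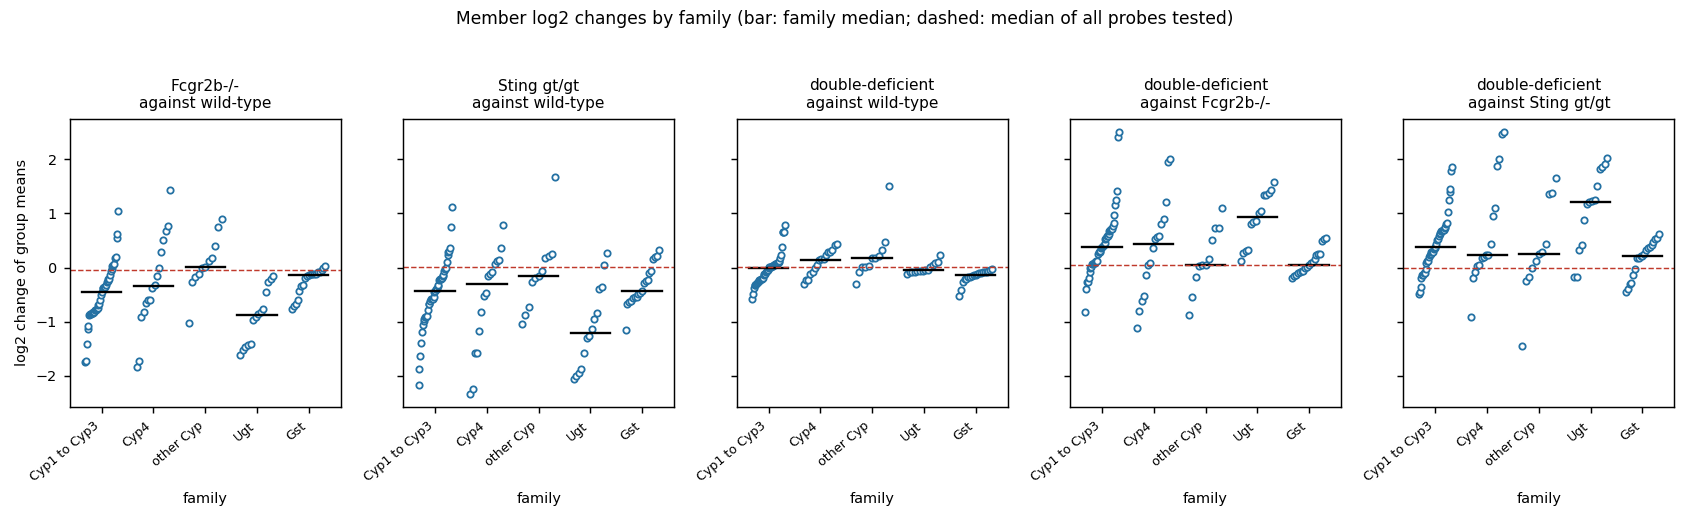
Log2 change of the group means of each of the 101 members (points) by family, for the 5 comparisons of a pair of genotypes. Black bars are family medians and the dashed line is the median of all probes tested. The Ugt median is -0.88 in Fcgr2b-/- and -1.20 in Sting gt/gt against wild-type, and -0.05 in double-deficient against wild-type.

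The 8 Ugt2 members, most of which conjugate steroids and bile acids, carried the largest family median. Their median change was -1.42 in Fcgr2b-/- and -1.73 in Sting gt/gt against wild-type over all 16 arrays. Within the 10 arrays without Y-linked signal it was -0.26 and -0.82, and with the signal as a covariate -0.23 and -0.65. The Gst medians lay further below 0 under this restriction. The median in Fcgr2b-/- against wild-type was -0.59 within the 10 arrays, with 19 of 19 members lower, and -0.63 in Sting gt/gt, again with 19 of 19 lower. Within the 10 arrays and with the covariate, 0 members were called in any comparison. Among those 10, both wild-type arrays lay on slide 2 and shared an animal number, and all 3 Fcgr2b-/- arrays lay on slide 1. Genotype and slide therefore cannot be told apart there in Fcgr2b-/- against wild-type. The mean Gst difference from the wild-type mean was -0.93 and 0.26 on wild-type 1 and 2, which were left out. It was 0.46 and 0.21 on wild-type 3 and 4, which were kept. The 6 arrays with the signal hold 1 Fcgr2b-/- and 1 Sting gt/gt array, too few for a comparison of their own.

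Of all single members, Gsta3 had the smallest p. It encodes an alpha class transferase. Its level was 5.36, 5.72, 5.53, and 5.44 in the wild-type mice and 4.72, 5.16, 3.99, and 3.58 in mice with the Sting gt/gt allele alone. The 4 Sting gt/gt arrays all lay below all 4 wild-type arrays. The change was -1.15 ± 0.36 (SE), with a 95% interval of -1.91 to -0.38, an unadjusted p of 0.0060, and an adjusted p of 0.74 by limma. The Fcgr2b-/- arrays were at 4.15, 5.47, 4.71, and 4.64 and the double-deficient arrays at 5.29, 5.30, 5.07, and 4.30, so each mutant group reached below the narrow wild-type range. In that same comparison the arrays of 6 members did not overlap, all lower in Sting gt/gt, where 1.92% of all probes did not overlap and 1.32% were lower. The others were Cyp2a22, Cyp2f2, Gstk1, Gstt2, and Ugt3a1. No member was without overlap in Fcgr2b-/- against wild-type (1.2% of all probes were) or in double-deficient against Fcgr2b-/- (1.01%), and 2 were in double-deficient against wild-type (0.547%), Cyp3a11 higher and Gsta3 lower.

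Cyp2a22, of the coumarin hydroxylase subfamily, was at -1.11, 0.92, -1.06, and -0.96 in wild-type mice and at -3.17, -1.72, -1.90, and -4.07 in Sting gt/gt mice. The difference was -2.16 ± 0.81 (SE; adjusted p = 0.74 by limma). In Fcgr2b-/- mice the level was -4.19, -1.45, 0.52, and -1.67, and in double-deficient mice -1.43, -1.45, -0.84, and 0.02. The low ends were Fcgr2b-/- 1, Sting gt/gt 1, and Sting gt/gt 4. The glycosyltransferase Ugt3a1 was at 6.05, 6.20, 5.39, and 5.19 in the wild-type group and at 4.95, 5.15, 4.90, and 2.77 in the Sting gt/gt group, a difference of -1.27. Its Fcgr2b-/- values were 3.33, 5.80, 5.63, and 4.63 and its double-deficient values 5.43, 6.33, 5.06, and 5.77. Here too Fcgr2b-/- 1 and Sting gt/gt 4 were lowest. The neighboring family member Ugt3a2 had its lowest levels, 4.14 and 3.39, on those arrays as well. The mean of the 10 proximal tubule markers was the lowest of all on Fcgr2b-/- 1, whereas on Sting gt/gt 4 it was 5.76, within the range of the other arrays. The part of these markers in the differences was not tested.

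The Cyp4f subfamily hydroxylates leukotrienes and long fatty acids, and Cyp4f18, which inactivates leukotriene B4 in neutrophils, had the smallest p in Fcgr2b-/- against wild-type. Its level was 1.77, -0.45, -0.55, and 1.22 in Fcgr2b-/- mice and 0.12, -1.35, -1.37, and -1.15 in wild-type mice. Fcgr2b-/- 1 and 4 were the highest of all 16 arrays, whereas the other Fcgr2b-/- arrays lay within the wild-type range. The change was 1.43 ± 0.50 (SE), with a 95% interval of 0.37 to 2.50, an unadjusted p of 0.012, and an adjusted p of 0.99998 by limma. In double-deficient mice it was at -0.91, 0.06, -0.63, and -0.99, a difference of -1.11 from Fcgr2b-/- (adjusted p = 0.99999 by limma) that was -0.69 without Fcgr2b-/- 1, and in Sting gt/gt mice at -0.34, -1.17, -0.63, and -1.04. Of the 6 leukocyte markers, 4 had a higher and 2 a lower mean in Fcgr2b-/- than in wild-type mice, and 0 were called. Ptprc, carried by all leukocytes, was at 3.09, -0.72, -0.43, and 2.05 in the Fcgr2b-/- mice in the same order. The macrophage genes Adgre1 and Cd68 were likewise highest on Fcgr2b-/- 1 and 4, with differences from wild-type of 2.57 and 2.32. The myeloid gene Itgam, 1 of the 2 that were lower, differed by -0.31. The mean of the 6 leukocyte markers was -0.86 to 0.79 in wild-type, -0.06 to 1.88 in Fcgr2b-/-, -0.21 to 0.99 in double-deficient, and -0.12 to 0.66 in Sting gt/gt mice. Their part in the Cyp4f18 difference was not tested.

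Among the Cyp4 members the genotype means lay farthest apart for Cyp4a12a, Cyp4a12b, and Cyp4b1-ps2, which also differed between the arrays with and without Y-linked signal. Cyp4a12a differed by -1.83 ± 2.16 (SE) in Fcgr2b-/- and by -2.33 ± 2.16 (SE) in Sting gt/gt against wild-type. Cyp4f16 was higher in Fcgr2b-/- than in wild-type mice by 0.76 ± 0.34 (SE; unadjusted p = 0.038). The transcribed pseudogene Cyp4f41-ps, above background on 6 arrays, was higher in double-deficient than in Fcgr2b-/- mice by 0.57. Cyp4a10, a fatty acid hydroxylase and a target of PPAR alpha, was at 2.24, 4.15, 4.19, and 4.25 in wild-type and at 3.56, 4.12, 1.90, and 0.53 in Sting gt/gt mice, and the groups overlapped.

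**Figure D2:**
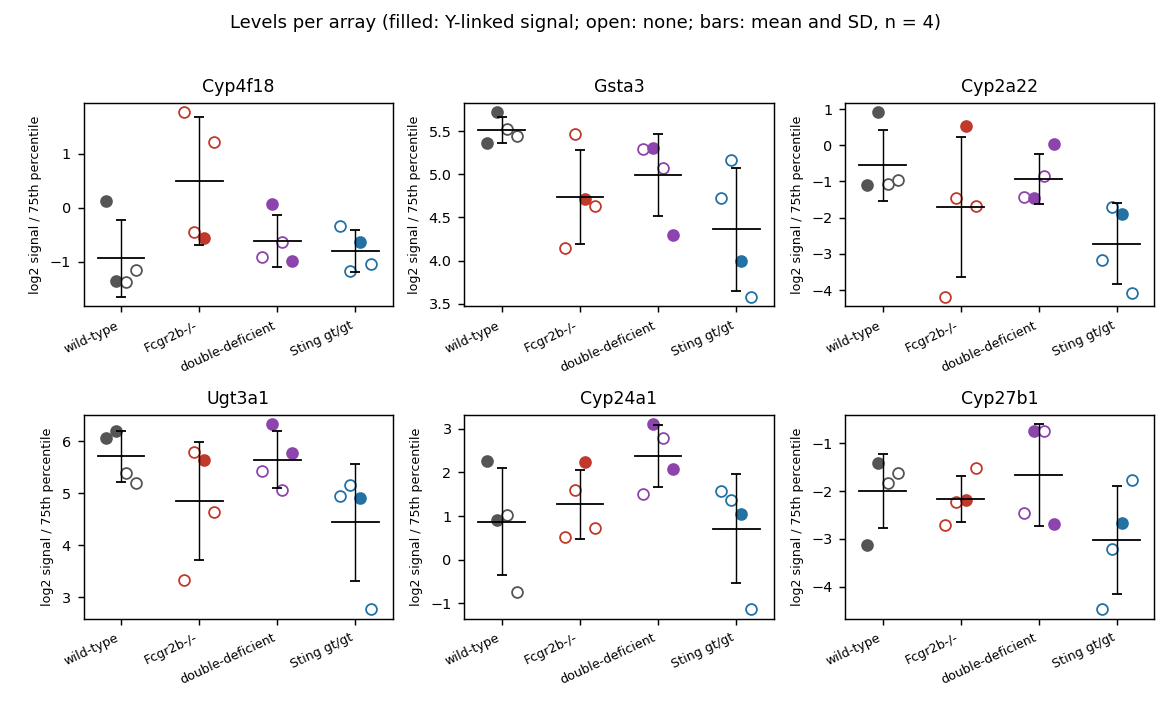
Levels per array of 6 members by genotype, as log2 of signal over the 75th percentile. Each point is 1 mouse, filled where the array had Y-linked signal, and bars are the mean and SD. Cyp4f18 is above 1 only on Fcgr2b-/- 1 and 4, the Gsta3 levels of Sting gt/gt lie below those of wild-type, and Cyp24a1 in double-deficient mice spans 1.51 to 3.11.

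Among the vitamin D enzymes, Cyp24a1, which inactivates the hormone, was at 1.51, 3.11, 2.78, and 2.08 in double-deficient mice. It was at 2.25, 0.92, 1.03, and -0.73 in wild-type and at 1.57, 1.37, 1.04, and -1.13 in Sting gt/gt mice, and at 0.52, 1.60, 2.23, and 0.72 in Fcgr2b-/- mice. The double-deficient group had the highest mean, and its range overlapped each of the others. The difference was 1.50 ± 0.66 (SE; unadjusted p = 0.039) from wild-type and 1.66 ± 0.66 (SE; unadjusted p = 0.025) from Sting gt/gt mice, with adjusted p-values of 0.999995 and 0.89 by limma. Without wild-type 4 the first was 0.97, and without Sting gt/gt 4 the second was 1.04. Within slide 1, which held 1 double-deficient array, they were -0.073 and 0.042, and within slide 2, which held the other 3, they were 2.51 and 2.70. With slide as a block they were 1.58 and 1.74.

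Cyp27b1, which makes the active hormone, was higher in double-deficient than in Sting gt/gt mice by 1.37 ± 0.59 (SE; unadjusted p = 0.034). Its double-deficient levels were -2.45, -0.74, -0.74, and -2.70 and its Sting gt/gt levels -4.48, -3.22, -2.67, and -1.77, so the groups overlapped. Without Sting gt/gt 1 the difference was 0.89. Cyp27a1, a sterol hydroxylase, was measured on 3 double-deficient arrays, with 1 value dropped as an outlier spot, and was at -1.07, -1.28, and -0.89 there. It was at -2.58, -1.45, -2.04, and -3.67 in Sting gt/gt mice, without overlap and lower by 1.36 ± 0.61 (SE; unadjusted p = 0.043). The difference was 0.85 after normexp background correction and 3.30 in the authors' table. Non-overlap in that comparison was found for 4 members, all higher in double-deficient mice (2.08% of all probes did not overlap, and 1.34% were higher). The others were Cyp2a22, Cyp2d11, and Gstt2. Cyp2r1, the 25-hydroxylase, had genotype means between 2.47 and 2.78. The vitamin D receptor Vdr was lowest on Fcgr2b-/- 1 at 1.34.

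Of the remaining genes with known roles, Cyp26b1, which clears retinoic acid, was at -0.12, -1.02, 0.24, and 2.68 in Sting gt/gt mice, with 1 array far above, and at -0.13, -1.36, -1.37, and -2.06 in wild-type mice. The difference was 1.67 ± 0.68 (SE; unadjusted p = 0.027). Cyp1a1 and Cyp1b1 are targets of the Ah receptor. Cyp1a1 had genotype means from -3.93 to -3.35. Cyp1b1 ranged from -1.12 to 3.38 over the 16 arrays, with its highest levels on Fcgr2b-/- 1, Sting gt/gt 1, double-deficient 2, and wild-type 1. The steroid enzymes Cyp17a1 and Cyp21a1 had means that spread by 0.26 and 0.29 among genotypes. The drug oxidase Cyp3a11, above background on 10 arrays, was higher in Sting gt/gt than in wild-type mice by 1.12 ± 0.39 (SE; unadjusted p = 0.011), from -5.26, -5.71, -5.71, and -5.25 to -3.93, -4.87, -5.44, and -3.23. That difference was 0.34 after normexp background correction and 0.74 without Sting gt/gt 4. Cyp2c55, which acts on arachidonic acid, was higher in double-deficient than in Fcgr2b-/- mice by 1.24, and by 0.37 with the shared animal number as a random block. Cyp2c23, a renal epoxygenase, had means within 0.22 of each other.

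In the Gst family the means of the 4 genotypes were close for most members. They spread by 0.30 for Gstm1, 0.48 for Gstp1, 0.55 for Gstt1, 0.44 for Gsto1, 0.67 for Gstk1 and Gsta2, and 0.70 for Gstz1, the maleylacetoacetate isomerase of tyrosine breakdown. Single arrays spread further. Gstm1 was at 3.41 on wild-type 1, 3.77 on double-deficient 2, and 3.83 on Fcgr2b-/- 1, and at 4.70 to 5.90 on the other 13. Gstp1 was lowest on wild-type 1, Fcgr2b-/- 1, and Sting gt/gt 4, at 1.24, 1.26, and 1.49.

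**Figure D3:**
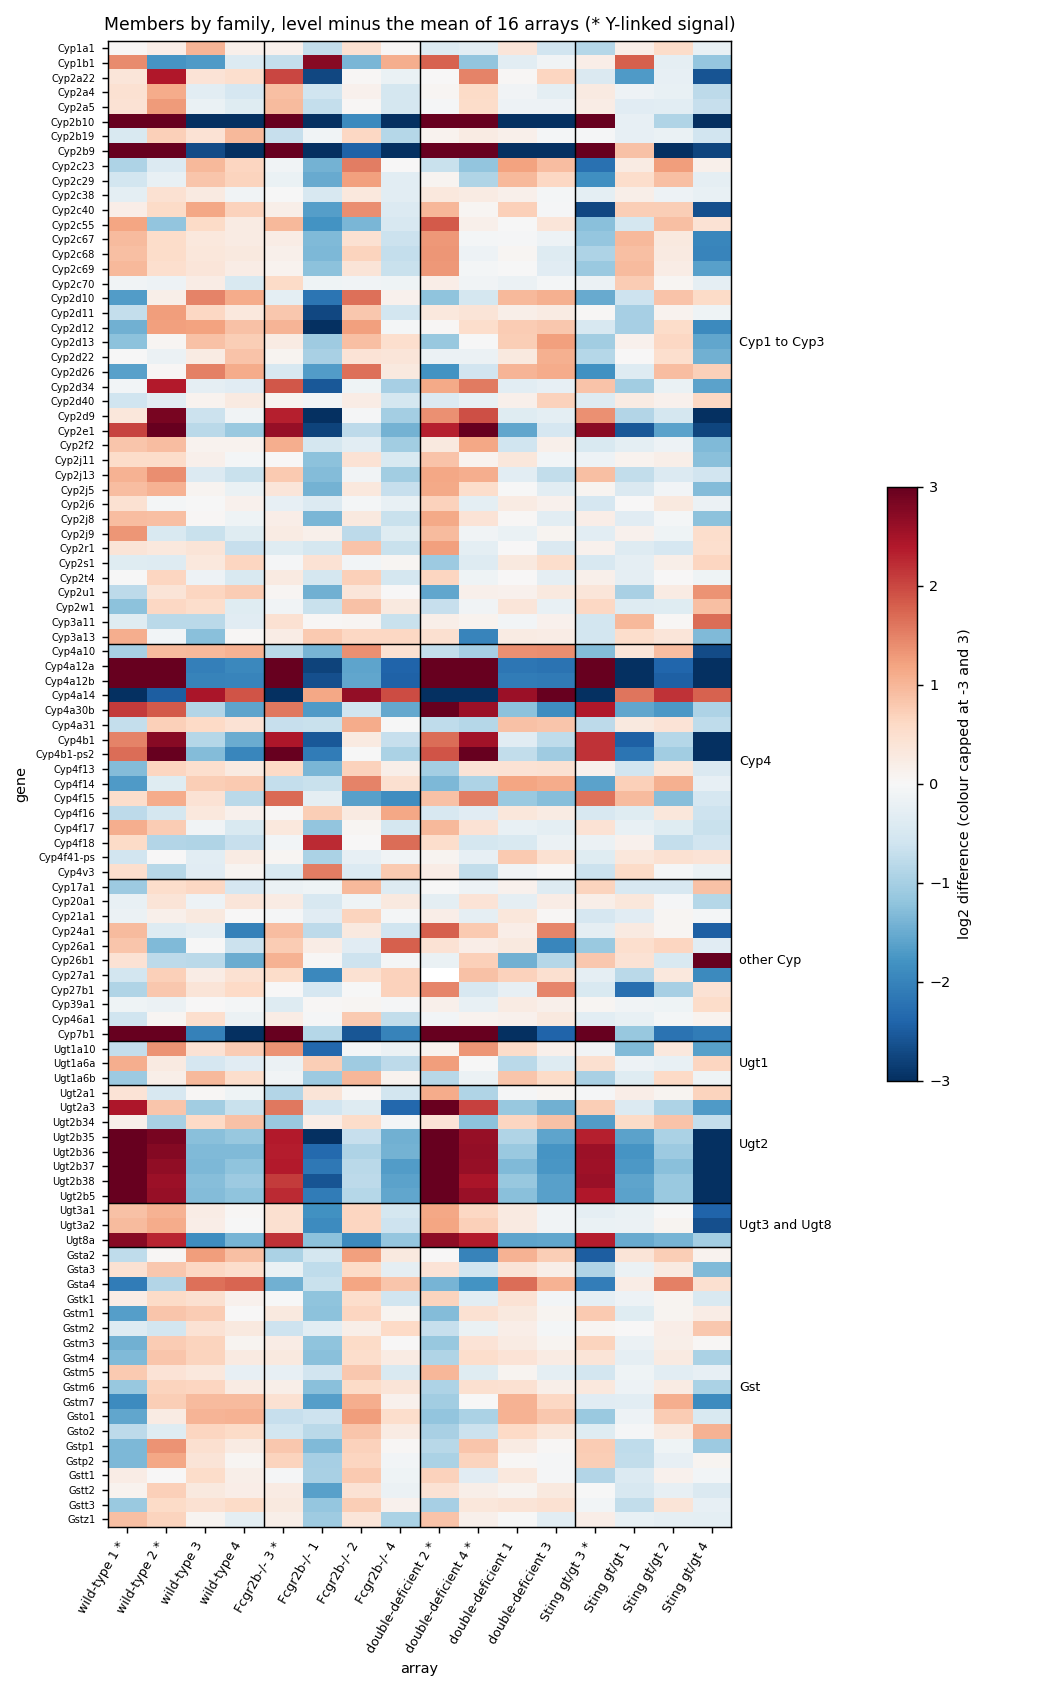
Level of each of the 101 members (rows, by family) on each of the 16 arrays (columns, by genotype), minus the mean of the gene over the arrays, on a log2 scale capped at -3 and 3, and white for the 1 missing value. Asterisks mark the 6 arrays with Y-linked signal. Rows such as Cyp4a12a, Cyp7b1, and Ugt2b37 are high on the 6 marked arrays in each genotype.

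The largest differences among the 101 members lay between the arrays with and without Y-linked signal. They are given as a description, with no test, since the labels do not set these arrays apart. On 22 of 101 members the 6 and the 10 arrays did not overlap, against 3.26% of all probes tested. On 20 members the 6 arrays were higher (2.27% of all probes) and on 2 they were lower (0.988%). The mean differed by at least 2-fold on 38 members and on 5.52% of all probes. By family, 7 of 16 Cyp4, 6 of 8 Ugt2, 6 of 41 Cyp1 to Cyp3, 1 of 11 other Cyp, 1 of 3 Ugt3 and Ugt8, 0 of 3 Ugt1, and 1 of 19 Gst members did not overlap. Some of these, such as Cyp4a30b and Cyp4a14, passed the background rule only through the set of arrays where they were high. Among probes above background on all 16 arrays, where this cannot occur, 16 of 83 members did not overlap (901 of all 26272 probes).

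**Figure D4:**
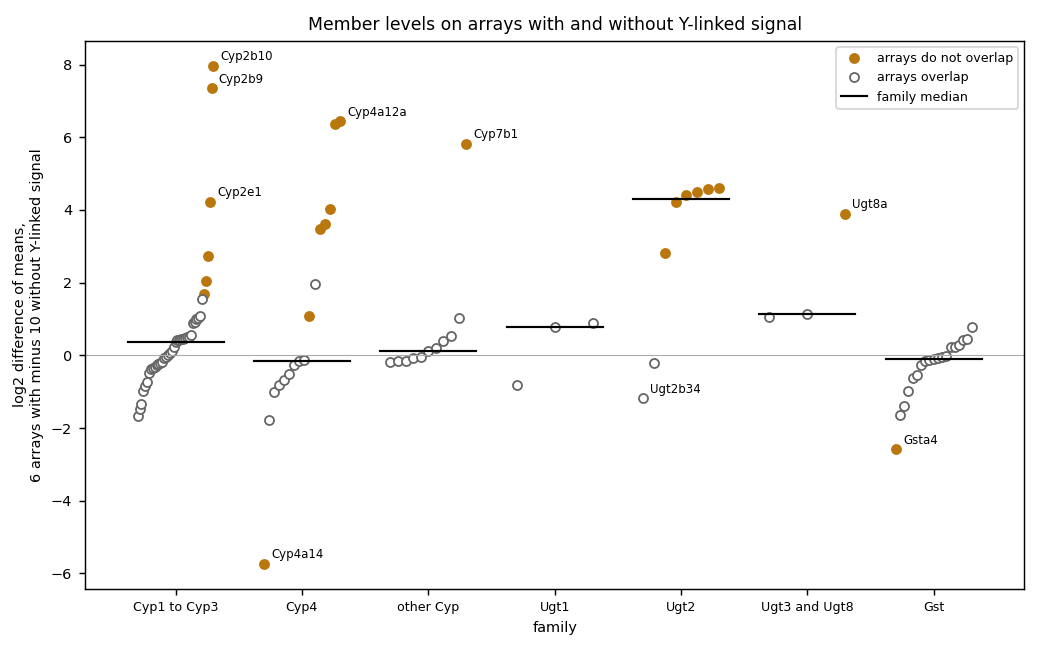
Difference in mean log2 level between the 6 arrays with and the 10 without Y-linked signal, for each member by family. Filled points are the 22 members whose arrays do not overlap, and bars are family medians. The Ugt2 median is 4.31, whereas the Gst median is -0.11, and Cyp4a14 and Gsta4 are the non-overlapping members that are lower.

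The Cyp4a genes, which hydroxylate arachidonic acid and other fatty acids at the end of the chain, split in both directions. Cyp4a12a, the arachidonic acid hydroxylase known to be raised by androgen, was at 4.10 to 5.34 (median 4.65) on the 6 arrays and -2.98 to -0.93 (median -1.64) on the 10. The difference was 87.2-fold. Cyp4a12b, a close copy whose signal a probe may not separate from it, was at 4.50 to 5.47 (median 4.88) on the 6 arrays and -2.42 to -0.55 (median -1.26) on the 10. Cyp4a14 was at -7.60 to -5.73 (median -7.06) on the 6 arrays and -2.11 to 0.05 (median -1.21) on the 10. It was not well above background on any of the 6 and was at least 18.5-fold lower there. Cyp4a30b was not well above background on any of the 10 arrays and at least 2.76-fold higher on the 6. Cyp4b1, a fatty acid and xenobiotic oxidase, was at 6.57 to 7.81 (median 7.38) on the 6 arrays and 1.76 to 5.34 (median 4.22) on the 10, and the transcribed pseudogene Cyp4b1-ps2 differed by 4.01.

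Cyp7b1, which hydroxylates oxysterols and steroids, was at 4.15 to 5.70 (median 4.55) on the 6 arrays and -2.19 to 0.28 (median -1.01) on the 10, 56.5-fold apart. The ethanol and acetone oxidase Cyp2e1 was at 6.86 to 8.03 (median 7.50) on the 6 arrays and 2.06 to 4.34 (median 3.35) on the 10, 18.7-fold apart. Cyp2d9, a testosterone hydroxylase, was at 1.63 to 4.15 (median 2.96) on the 6 arrays and -1.91 to 1.27 (median 0.71) on the 10. Cyp2j13, an arachidonic acid epoxygenase, was at 3.01 to 3.61 (median 3.29) on the 6 arrays and 0.92 to 2.13 (median 1.60) on the 10. The epoxygenase Cyp2j5 was higher by 1.09, with overlap. Cyp2b9 and Cyp2b10, the inducible drug oxidases whose promoters are given above, were above background on all 6 arrays, at -0.91 to 1.70 and 0.07 to 2.88. Of the 10 other arrays 1 and 2 were above background for them, so their lower level is not measured on most arrays.

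**Figure D5:**
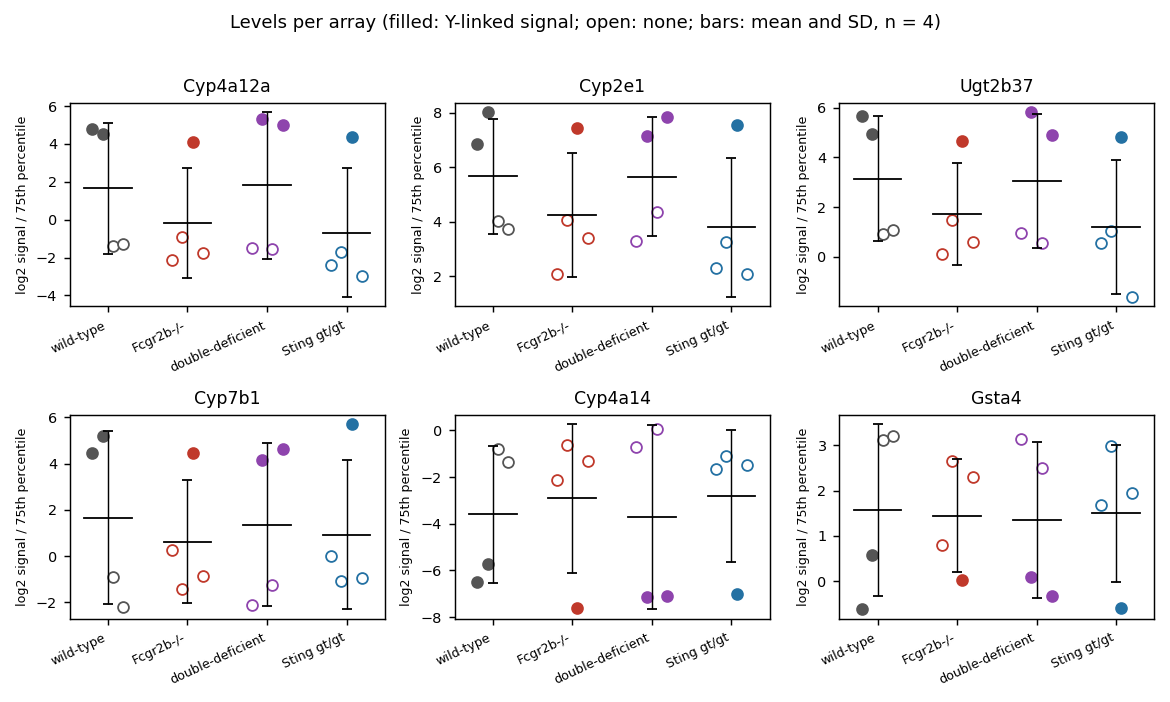
Levels per array of 6 members by genotype, as log2 of signal over the 75th percentile. Each point is 1 mouse, filled where the array had Y-linked signal, and bars are the mean and SD of all 4 mice. In every genotype the filled points are above the open points for Cyp4a12a, Cyp2e1, Ugt2b37, and Cyp7b1 and below them for Cyp4a14 and Gsta4.

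In the Ugt2b cluster 5 genes moved as a block. Ugt2b37 was at 4.66 to 5.83 (median 4.92) on the 6 arrays and -1.62 to 1.48 (median 0.77) on the 10, 23.7-fold apart, and the differences of Ugt2b5, Ugt2b35, Ugt2b36, and Ugt2b38 were 4.40, 4.49, 4.60, and 4.23. These 5 hold the shared run printed above, and they are close copies, so their probes may record one another. Sting gt/gt 4 had the lowest level of each of the 5. Ugt2b34, which lacks the full run by 1 fixed base, was lower on the 6 arrays by 1.18, with overlap. Of the 8 Ugt2 members, 6 were higher on the 6 arrays without overlap, whereas 5 of the 8 Ugt2 promoters hold the run. Among all members higher without overlap, the run was in 5 of 15 promoters. The run was taken from these 5 genes, and its part in the split was not tested. Ugt8a, which makes the galactolipids of myelin and kidney, was at 1.32 to 1.87 (median 1.51) on the 6 arrays and -2.76 to -1.87 (median -2.31) on the 10. Ugt1a6a, which conjugates phenols, was higher by 0.77, with overlap.

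In the Gst family only Gsta4 did not overlap. It conjugates the lipid peroxidation product hydroxynonenal, and was at -0.62 to 0.58 (median -0.15) on the 6 arrays and 0.79 to 3.21 (median 2.59) on the 10, lower on the 6 arrays by 2.58. Gsta2 and Gsto1 were lower by 1.64 and 1.40, with overlap, and Gsta3 by 0.01. Gstz1 was higher by 0.79.

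The kidney genes known to be raised by androgen gave the same split. The mean of Kap, Odc1, Gusb, and Slco1a1 was 5.25 to 6.51 on the 6 arrays and 1.99 to 2.98 on the 10, and 3 of the 4 genes did not overlap. Kap was the exception, at 9.08 to 9.75 and 8.72 to 9.79. The proximal tubule markers overlapped, with means of 5.64 to 6.45 and 4.51 to 6.53. The part of sex, hormone, or litter in these differences was not tested.

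Among 52 partner genes of these pathways, 51 were measured and 0 were called in any of the 7 comparisons. At an unadjusted p under 0.05 between 0 and 7 passed, with 7 in the interaction, where 6.2% of all probes passed. The electron donor Por had levels from 4.25 to 5.90 over all arrays, lowest on Fcgr2b-/- 1. Cpt1a, the carnitine transferase of fatty acid import and a PPAR alpha target, had the smallest p in Sting gt/gt against wild-type (unadjusted p = 0.031, adjusted p = 0.74 by limma). The xenobiotic sensor Ahr and the nuclear receptors Nr1i2, Nr1i3, Ppara, Vdr, and Hnf4a overlapped between the 6 and the 10 arrays. In other phase I enzymes 3 of 7 did not overlap, all higher on the 6 arrays, where 2.27% of all probes were higher without overlap. The same held for 1 of 6 electron donors and 1 of 6 PPAR alpha targets. Of the 8 genes of glucuronide and glutathione supply and export, 1 was higher and 1 lower without overlap.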

How the data were processed

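Kidney RNA of 16 mice, 4 of each of 4 genotypes, was measured on one-color Agilent arrays, 1 mouse per array, and each mouse's group came from its labels. The authors deposited scanner files (Agilent Feature Extraction 11.0), whose processed values are background-subtracted intensities with no scaling between arrays, and a further table with log2 values of each array, whose preparation is not given in the sources used here and which served as an alternative.

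From the scanner files, control and outlier spots were left out, spots of a probe were averaged, and log2 of the intensity minus log2 of the array's 75th percentile was taken (Python 3.11.15, pandas 2.3.3). Probes above background on at least 4 of 16 arrays entered a fit in limma 3.58.1 under R 4.3.3, with a mean per genotype, adjustment over all 35628 probes, and a call at an adjusted p under 0.05 and at least 2-fold. A gene is its probe with the highest mean signal. Of 56605 probes, 58.3% were named through RefSeq (GRCm38.p6). Where all arrays of a set were below background, the fold is a bound against the lowest signal above background. The number of arrays limits the precision.

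Named were members with the 3 smallest p-values of a comparison without enough calls, the 3 with the widest genotype means of each family, and a list of known roles. The members and lists were chosen with earlier results of these data known. Simulated data were used to test the fit. The alternatives were other background corrections and scalings (normexp with an offset of 50 used the median signal), other filters, the authors' table, the methods' Mann-Whitney test (two-tailed), a fit of the compared groups only, trend and robust settings, the median probe, the slide, the replicate number, the animal number, and Y-linked signal as model terms, and each array left out. The labels do not say whether the mice shared litters, so p-values measure the spread between these arrays.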

Additional observations from a re-analysis of the deposited data

Results flagged for a closer look

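Of 215 sets of 4 arrays, 16 had 1 array far from the other 3, and for independent sets chance gives about 1 in 20. The sets share the same 16 arrays, and some of their genes were picked from these data, so that rate need not hold here. In Sting gt/gt mice, array 3, the single one with Y-linked signal, was highest for Cyp4a12b (4.75), Cyp7b1 (5.70), Ugt8a (1.49), and Gstz1 (5.67), and lowest for Cyp4a14 (-7.01) and Cyp4f41-ps (-5.81). Cyp2b9 was highest on Fcgr2b-/- 3 (-0.91), likewise the single array of its group with that signal. Sting gt/gt 4 was lowest for Ugt3a1 (2.77) and for the mean difference of the Cyp1 to Cyp3 members from wild-type (-1.04), and Sting gt/gt 2 was highest for that of the Gst members (0.08). In wild-type mice, array 3 was highest for Cyp1a1 (-2.69), array 2 for Cyp2a22 (0.92), and array 1 for Cyp4f18 (0.12), whereas Cyp2r1 was lowest on array 4 (1.95) and Cyp4a10 on array 1 (2.24). Cyp27a1 was lowest on Fcgr2b-/- 1 (-3.69).

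For 6 of the 44 named members, each array of the deficient group lay on one side of the mean of its control group in one comparison, and each lay on the opposite side in the counterpart comparison. The arrays themselves could overlap, as they did for every member in double-deficient against Fcgr2b-/- mice. With loss of STING, Cyp2a22 was 0.77 higher in Fcgr2b-/- mice and differed by -2.16 in mice with Fcgr2b, an interaction of 2.93. Ugt3a1 differed by 0.80 and -1.27 (2.06), Gstk1 by 0.50 and -0.55 (1.04), Gstz1 by 0.54 and -0.48 (1.02), and Cyp2j5 by 0.68 and -0.89 (1.57). With loss of Fcgr2b, Cyp2j5 differed by -0.82 in mice with STING and 0.75 without it, and Cyp26b1 by 0.76 and -1.46. The first minus the second of these, which is the interaction with its sign turned, was -1.57 for Cyp2j5 and 2.21 for Cyp26b1. In the limma interaction none of the 101 members passed, and the smallest adjusted p was 0.67. The mean of the proximal tubule markers was lowest on Fcgr2b-/- 1 (4.51). Y-linked signal was on 2 arrays each of the wild-type and double-deficient groups and on 1 each of the others. With that signal as a covariate the interaction was 2.33 for Cyp2a22 and 1.60 for Ugt3a1. Within the 10 arrays without it the values were 3.27 and 1.65. The part of the markers or of the Y-linked signal in these differences was not tested.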

How the results depend on the processing

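The count of members called stayed at 0 in each comparison under all the alternatives but the following. With 4 mice against 4 the exact Mann-Whitney p cannot go below 0.0286, so after adjustment that test could call none. The Mann-Whitney test without adjustment called 4 members in Sting gt/gt against wild-type (117 of all 35621 probes compared). It called 1 member in double-deficient against Sting gt/gt (171 of all 35619). Within slide 1, a division chosen after seeing the data, 9 members were called in Fcgr2b-/- against wild-type, 3 in Sting gt/gt against wild-type, and 2 in any difference among the 4 genotypes, and on that slide wild-type and Y-linked signal cannot be told apart. Of all 35628 probes, 67 were called within slide 1 in Fcgr2b-/- against wild-type and 43 in Sting gt/gt against wild-type. The test of any difference there includes the double-deficient group with 1 array, so its count is not set against all probes. Leaving out each array in turn gave 0 to 0 members called in each comparison. The replicate numbers did not pair the arrays (11 of 24 same-number pairs correlated above 0.1, median -0.06), and a fit with the replicate block called 0 members. The 22 members whose arrays with and without Y-linked signal did not overlap numbered 16 of 83 (901 of all 26272 probes) to 27 (1362 of all 35628) over alternatives also chosen after seeing the data. With 1 array left out they numbered 22 to 27, and the count over all probes lay between 1183 and 1504. Of 21 single-member changes, within slide 1 the change turned for Cyp1a1 (0.26) and Cyp24a1 (-0.073) in double-deficient against wild-type and for Cyp24a1 in both Fcgr2b-deficient groups against the rest (-0.30). Within slide 2 it turned for Cyp2c55 (-0.20) and Cyp4f18 (0.037) in double-deficient against Fcgr2b-/- and for Cyp4f16 in Fcgr2b-/- against wild-type (-0.19). Slide 1 holds 1 double-deficient array and slide 2 holds 1 Fcgr2b-/- array, which is also its array with Y-linked signal, so each of these turned changes that involves that group there rests on a lone array assumed to vary like the other groups. The cause was not tested. In the other alternatives these changes kept their direction. Normexp background correction lowered Cyp4f41-ps in double-deficient against Fcgr2b-/- from 0.57 to 0.078 and Cyp3a11 in double-deficient against wild-type from 0.66 to 0.098. Without 1 array, Cyp1a1 in double-deficient against wild-type was -0.35 (wild-type 3), and in double-deficient against Fcgr2b-/- Cyp2c55 was 0.83 (double-deficient 2) and Cyp4f41-ps 0.37 (Fcgr2b-/- 1).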
